A study of Homo sapiens with 34 samples.

Results

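The genes described here are 10 germinal centre genes of B cells, chosen by symbol as BCL6, MME, MYBL1, LMO2, ITPKB, SERPINA9, MEF2B, ELL3, GCSAM and BCL7A, out of 31975 genes in the deposited table. They were read in 34 established human lymphoma cell lines, each grown as a culture and sequenced as 1 library from total RNA. The lines fell into 14 of germinal centre B-cell diffuse large B-cell lymphoma (GCB DLBCL), 3 of Burkitt lymphoma (BL), 6 of activated B-cell diffuse large B-cell lymphoma (ABC DLBCL) and 11 of mantle cell lymphoma (MCL). No treatment, allele or time separated the lines, and pathology was the only biological factor in the labels, which also marked all but Daudi, HBL-2, MAVER-1 and UPN1 as re-analysed. Lines stood in as replicates within a pathology, and p-values therefore measure the spread between lines, each seen once. In the bulk RNA of a line, fewer expressing cells and less RNA per cell cannot be told apart.

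The germinal centre is the site in lymphoid follicles where activated B cells divide, mutate their immunoglobulin genes and compete for antigen. BCL6, a transcriptional repressor, holds B cells in that state and is silenced when they leave it to become plasma or memory cells. CD10, the cell surface peptidase encoded by MME, marks germinal centre B cells in diagnostic pathology. GCB DLBCL and BL are thought to arise from germinal centre B cells, ABC DLBCL from cells leaving the germinal centre and most MCL from B cells that have not passed through it. BCL6, MME, LMO2, MYBL1, ITPKB and SERPINA9 recur in expression classifiers that separate the types of DLBCL.

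Values are variance-stabilised read counts in log2 units, on which a gene without reads lies at 4.55 and a single read at 4.70 in the deepest library to 5.63 in the shallowest. With M for 1e6, the depth of a library was 2.55 to 108 M reads in GCB DLBCL, 22.6 to 92.4 M in BL, 22.7 to 165 M reads in the ABC DLBCL lines and 60.1 to 109 M in MCL. The libraries fell into 2 classes by the genes ZNF593 and EMC6, which had 0 reads in the 9 libraries of the second class. That class held 8 of 14 GCB DLBCL lines (DB, DOHH-2, Karpas422, NU-DHL-1, OCI-Ly1, OCI-Ly7, SU-DHL-6 and WSU-DLCL2), the shallowest libraries with 2.55 to 4.84 M reads, and the ABC DLBCL line NU-DUL-1. In GCB DLBCL pathology and library class thus cannot be fully told apart, and differences are given again within the 25 lines of the first class. The B-cell markers CD79A, CD79B, MS4A1, PAX5 and CD22 had reads in every line, with a summed level of 1108 to 7390 reads per M reads of the library (RPM).

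For all 10 germinal centre genes the mean levels of GCB DLBCL and of BL lay above those of ABC DLBCL and MCL. Set against MCL, 6 of the 10 were higher in GCB DLBCL, namely BCL6, MME, MYBL1, LMO2, ITPKB and SERPINA9 (limma, adjusted p below 0.05), while 12.7% of the 22167 genes tested were higher. All 10 had a positive difference, with a median of 2.14 against 0.02 over all genes tested. Within the first class 4 were higher in GCB DLBCL (BCL6, MME, MYBL1 and ELL3), beside 1.27% of all genes. Against ABC DLBCL, MYBL1 and ITPKB were higher in GCB DLBCL, 2 of 10 beside 0.334% of all genes, and MYBL1 alone was within the first class, beside 0.122%. The labels do not say how lines were assigned to GCB or ABC DLBCL. If expression of such classifier genes was used, this difference is in part fixed by the labels. The 3 BL lines had more MME and MYBL1 than MCL, 2 of 10 beside 0.374% of all genes, and BCL6, MME, MYBL1 and ELL3 within the first class, 4 of 10 beside 0.627%. MYBL1 was also higher in BL than in ABC DLBCL, 1 of 10 beside 0.0677% of all genes, and within the first class so was MME, beside 0.275%. These comparisons share lines and are not independent of each other.

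Neither of the remaining comparisons held a called member. For GCB DLBCL minus BL limma called 0 of 10, with 0 at an unadjusted p under 0.05 and 0 by limma-voom, while 0.153% of all genes were called in either direction. For ABC DLBCL minus MCL limma called 0 of 10, with BCL6 and ITPKB at an unadjusted p under 0.05 and 0 called by limma-voom, while 0.690% of all genes were called. With 3 to 14 lines in a group, these counts do not show that the levels were alike.

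**Figure D1:**
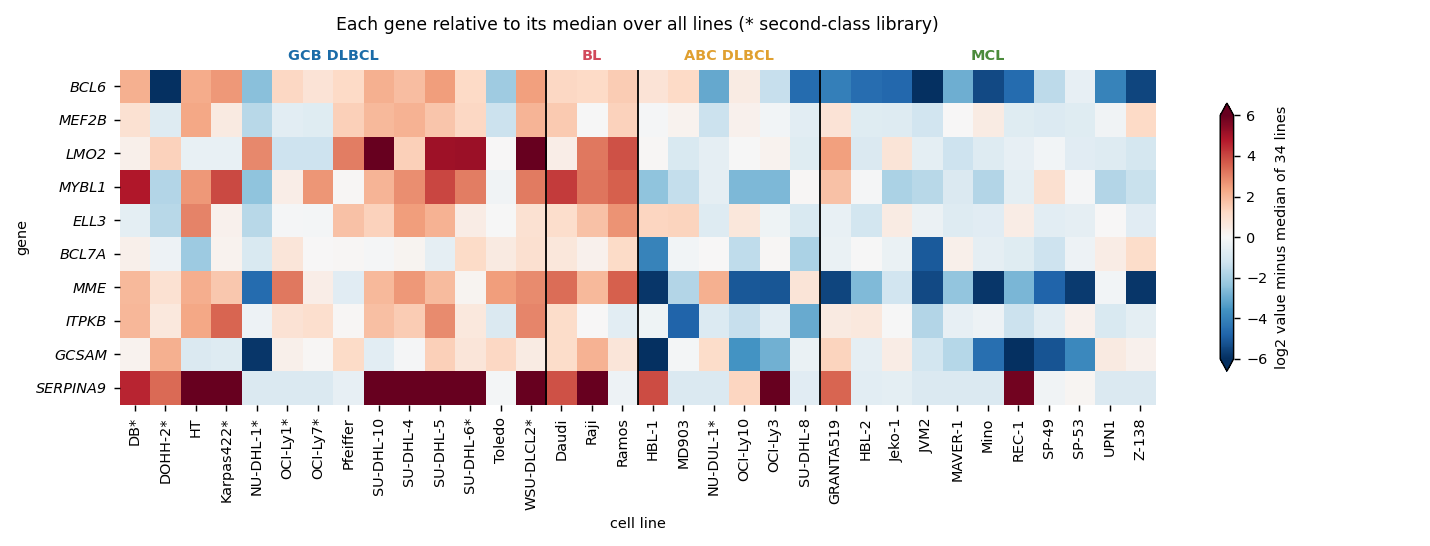
Heat map of the 10 germinal centre genes (rows) in 34 cell lines (columns, grouped as GCB DLBCL, BL, ABC DLBCL and MCL), coloured by the log2 variance-stabilised count minus the median of the gene over all 34 lines, with the colour scale ending at 6 on either side and an asterisk for a second-class library. Red prevails in GCB DLBCL and BL and blue in MCL, with DOHH-2, NU-DHL-1 and Toledo as the GCB DLBCL lines with the fewest genes above the median and GRANTA519 as an MCL line with 6 genes above the median.

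BCL6 (ENSG00000113916, chromosome 3, 187721377 to 187745468, GRCh38.p14) encodes the zinc finger repressor at the centre of this programme. In GCB DLBCL its lowest value was 4.55 in DOHH-2, its median 13.62 and its highest value 14.65 in Karpas422. In BL, Daudi had 13.29, Raji 13.27 and Ramos 13.60. The ABC DLBCL lines had 13.25 in MD903, 12.88 in HBL-1, 12.57 in OCI-Ly10, 10.68 in OCI-Ly3, 9.01 in NU-DUL-1 and 7.43 in SU-DHL-8. The MCL lines lay between 5.45 in JVM2 and 11.55 in SP-53, with a median of 7.49. Thus 11 of 14 GCB DLBCL lines and all 3 BL lines lay above every MCL line, and ABC DLBCL overlapped both sides, with 3 of its 6 lines above every MCL line.

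The order of mean BCL6 levels was BL, GCB DLBCL, ABC DLBCL and MCL, and no neighbours in that order differed past the threshold. BCL6 averaged 12.65 ± 2.83 in GCB DLBCL (SD, n = 14) and 8.01 ± 1.78 in MCL (SD, n = 11), a difference of 4.64 ± 0.89 (SE, limma adjusted p = 0.000812). Within the first class the difference was 5.35 ± 0.90 (SE, adjusted p = 0.00249). BL averaged 13.39 ± 0.18 (SD, n = 3), 5.38 ± 1.43 above MCL, which missed the threshold over all lines (limma adjusted p = 0.0534) and passed it within the first class (adjusted p = 0.0165). ABC DLBCL averaged 10.97 ± 2.36 (SD, n = 6), and its difference of 2.96 ± 1.12 from MCL did not pass (limma adjusted p = 0.273).

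DOHH-2 stood apart from the other GCB DLBCL lines, with 0 BCL6 reads among 3.18 M. A count of 0 allows up to 0.943 RPM, at 3 counts per library and for counting error only. The other 13 GCB DLBCL lines had a median of 359 RPM, so BCL6 was at least 381-fold lower in DOHH-2. NU-DHL-1 (9.57, 52 reads) and Toledo (9.93, 2215 reads) were the next lowest, and both lay within the range of the MCL lines. NU-DHL-1 was a second-class and Toledo a first-class library.

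Promoter windows from RefSeq (GRCh38.p14), 250 bases before to 50 after a transcription start, covered 8 of the 10 genes in 12 windows. They were searched on both strands for the octamer ATGCAAAT, which Oct factors and their B-cell coactivator bind, for the BCL6 motif TTCCTAGAA and for the MEF2 motif TAAAAATA. Of 35116 windows of that length 1.77% held the octamer, 0.373% the BCL6 motif and 2.28% the MEF2 motif. The windows with a match belonged to BCL6, SERPINA9 and MEF2B, and these letters were not in the other windows searched. The 3 windows are printed because they are those with a match, on the strand of the gene and 5′ to 3′, with matched letters in capitals. The BCL6 window (chr3:187745419-187745718, minus strand) held the BCL6 motif on the opposite strand, at bases 36 to 44 after the start. The MEF2B window (chr19:19170214-19170513, minus strand) held the octamer at bases -82 to -75. The SERPINA9 window (chr14:94476148-94476447, minus strand) held the octamer on the opposite strand at bases -133 to -126 and -96 to -89, and the MEF2 motif at bases -148 to -141 and -111 to -104. A match is a description of the letters and not a measured binding site.
BCL6: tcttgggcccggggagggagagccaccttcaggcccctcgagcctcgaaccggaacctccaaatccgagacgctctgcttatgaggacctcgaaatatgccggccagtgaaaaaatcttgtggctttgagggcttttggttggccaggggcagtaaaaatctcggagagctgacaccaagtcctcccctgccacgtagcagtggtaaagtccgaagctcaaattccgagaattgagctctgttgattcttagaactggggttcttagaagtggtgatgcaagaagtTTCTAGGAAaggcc
MEF2B: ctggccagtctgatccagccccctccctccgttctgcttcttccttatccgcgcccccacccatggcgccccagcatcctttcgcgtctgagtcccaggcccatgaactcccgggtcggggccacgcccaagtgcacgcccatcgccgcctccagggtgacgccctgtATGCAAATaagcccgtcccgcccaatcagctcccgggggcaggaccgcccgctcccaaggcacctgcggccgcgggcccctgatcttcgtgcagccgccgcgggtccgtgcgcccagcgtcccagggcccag
SERPINA9: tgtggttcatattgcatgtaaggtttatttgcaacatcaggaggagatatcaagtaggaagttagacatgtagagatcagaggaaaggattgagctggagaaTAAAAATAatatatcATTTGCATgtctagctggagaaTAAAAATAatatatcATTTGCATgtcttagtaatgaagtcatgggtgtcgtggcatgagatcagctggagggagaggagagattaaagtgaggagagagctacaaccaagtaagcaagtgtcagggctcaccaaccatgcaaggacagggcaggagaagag

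MEF2B (chromosome 19, 19145567 to 19170263) encodes a transcription factor that activates BCL6 in germinal centre B cells. Values in GCB DLBCL ran from 4.55 in NU-DHL-1, with 0 reads, through a median of 7.30 to 8.53 in HT. Daudi, Raji and Ramos, the BL lines, had 7.77, 6.21 and 7.61, ABC DLBCL lay between 4.91 and 6.48 and MCL between 5.05 and 7.43. The highest values were in GCB DLBCL and BL, yet 5 GCB DLBCL lines (NU-DHL-1, Toledo, DOHH-2, OCI-Ly7 and OCI-Ly1) had 0 to 4 reads each. The difference between GCB DLBCL and MCL was 0.89 ± 0.42 over all lines (limma adjusted p = 0.116) and 1.61 ± 0.45 within the first class (adjusted p = 0.0543). Reads of the overlapping readthrough gene BORCS8-MEF2B, at most 16 in any line, cannot be told apart from those of MEF2B if shared. On these few reads BORCS8-MEF2B was itself higher in GCB DLBCL than in MCL, by 0.611 ± 0.193 (limma adjusted p = 0.0226).

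LMO2 (chromosome 11, 33858576 to 33892076) encodes a LIM-only protein that bridges transcription factors and is a diagnostic marker of germinal centre lymphoma. It varied widely within GCB DLBCL, between 4.55 in OCI-Ly1 and OCI-Ly7, each with 0 reads, and 12.75 in SU-DHL-10, with a median of 7.17. The BL lines had 6.17 in Daudi, 8.96 in Raji and 9.59 in Ramos. ABC DLBCL lay between 4.84 and 5.98, with at most 96 reads in a line. The MCL lines lay between 4.55 and 8.25, with a median of 5.11, and GRANTA519 alone of them exceeded 6.55. All 3 BL lines lay above every ABC DLBCL line, and 9 of 14 GCB DLBCL lines did.

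For LMO2 the difference between GCB DLBCL and MCL was 2.40 ± 0.78 (SE, limma adjusted p = 0.0264), and 2.99 ± 0.85 within the first class, which missed the threshold (adjusted p = 0.0552). Most values of ABC DLBCL and MCL lay near the lowest value of the scale, where log2 differences understate the ratio of reads. The spread within GCB DLBCL was wide in both library classes, since SU-DHL-6 (10.92) and WSU-DLCL2 (12.16) were second-class and HT (5.33) and Toledo (5.79) first-class lines.

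MYBL1 (chromosome 8, 66562175 to 66613218) encodes A-MYB, a transcription factor of cycling germinal centre cells. It was lowest in NU-DHL-1 (6.05), had a median of 11.08 and was highest in DB (13.26) among GCB DLBCL lines. In BL, Daudi had 12.68, Raji 11.68 and Ramos 12.07. The ABC DLBCL lines had 8.52 in SU-DHL-8, 7.93 in NU-DUL-1, 7.02 in MD903, 6.06 in HBL-1, 5.77 in OCI-Ly3 and 5.75 in OCI-Ly10. MCL lay between 6.55 in Jeko-1 and 10.24 in GRANTA519, with a median of 7.58. Here the BL lines lay above every ABC DLBCL and MCL line, and 10 of 14 GCB DLBCL lines lay above every ABC DLBCL line.

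MYBL1 was called in 4 comparisons, more than any other of the 10 genes. It averaged 10.25 ± 2.21 in GCB DLBCL (SD, n = 14) and 7.80 ± 1.22 in MCL (SD, n = 11), and the difference was 2.45 ± 0.65 (SE, limma adjusted p = 0.00884) and 2.54 ± 0.63 within the first class (adjusted p = 0.0314). With library class as a covariate it was 2.38 and did not pass (limma adjusted p = 0.114). Against ABC DLBCL, at 6.84 ± 1.18 (SD, n = 6), GCB DLBCL was higher by 3.41 ± 0.79 (limma adjusted p = 0.0325, first class 0.0416). That call was lost with library class as a covariate (3.36, limma adjusted p = 0.103) and among the re-analysed lines (0.0582). It was also lost without HBL-1 (limma adjusted p = 0.0809), OCI-Ly10 (0.124) or OCI-Ly3 (0.105). BL, at 12.14 ± 0.50 (SD, n = 3), exceeded ABC DLBCL by 5.30 ± 1.14 (limma adjusted p = 0.0412) and MCL by 4.34 ± 1.05 (adjusted p = 0.0319). Without any single BL line neither passed, with limma adjusted p-values of 0.0905 to 0.188 against ABC DLBCL and 0.101 to 0.216 against MCL. The BL and ABC DLBCL call was also lost without HBL-1 (limma adjusted p = 0.0875), MD903 (0.0517), OCI-Ly10 (0.0918) or OCI-Ly3 (0.095).

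ELL3 (chromosome 15, 43772620 to 43776966) encodes a transcription elongation factor. In GCB DLBCL it lay between 4.55 in DOHH-2 and NU-DHL-1 and 9.22 in HT, with a median of 6.60. Daudi, Raji and Ramos, the BL lines, had 7.28, 7.97 and 8.92. ABC DLBCL lay between 5.33 in SU-DHL-8 and 7.55 in MD903, and MCL between 5.15 in HBL-2 and 6.71 in Jeko-1. All 3 BL lines therefore lay above every MCL line.

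ELL3 was the gene that differed most between the library classes of GCB DLBCL, with 0 to 9 reads and a mean of 5.92 in the 8 second-class lines and 80 to 1340 reads and a mean of 8.01 in the 6 first-class lines. Over all lines the difference between GCB DLBCL and MCL was 0.97 ± 0.43 (SE, limma adjusted p = 0.0946), while within the first class it was 2.16 ± 0.41 (adjusted p = 0.00583). BL minus MCL was 2.21 ± 0.70 (SE, limma adjusted p = 0.118), and passed within the first class (adjusted p = 0.0288). The gene overlaps PDIA3, a protein disulphide isomerase measured at 12.22 to 15.10 in the lines, whose difference between GCB DLBCL and MCL was 0.30 ± 0.24 (limma adjusted p = 0.357). The sources used here do not give whether reads were counted by strand.

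BCL7A (chromosome 12, 122021884 to 122062044) encodes a subunit of SWI/SNF chromatin remodelling complexes and is a recurrent target of mutation in germinal centre lymphoma. Its means ± SD were 12.39 ± 0.84 over the 14 GCB DLBCL lines, 13.08 ± 0.44 over the 3 BL lines, 11.13 ± 1.58 over the 6 ABC DLBCL lines and 11.76 ± 1.59 over the 11 MCL lines. The lowest values were 10.21 in HT among GCB DLBCL lines, 8.37 in HBL-1 among ABC DLBCL lines and 7.35 in JVM2 among MCL lines. The 3 BL lines lay above every ABC DLBCL line, while GCB DLBCL, ABC DLBCL and MCL overlapped. None of its differences passed, and that between GCB DLBCL and MCL was 0.64 ± 0.48 (SE, limma adjusted p = 0.336).

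**Figure D2:**
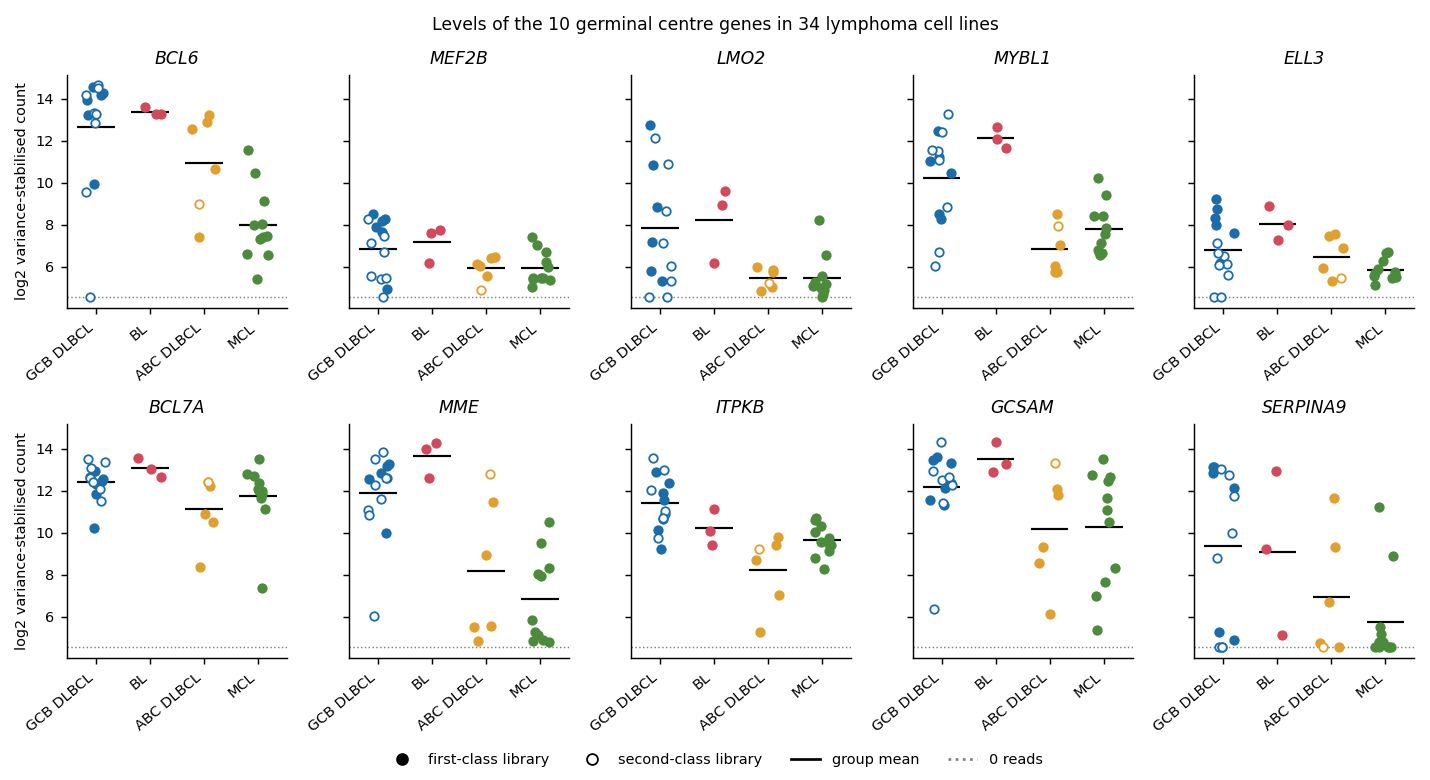
Log2 variance-stabilised count (vertical axis) of each of the 10 genes in GCB DLBCL, BL, ABC DLBCL and MCL lines, with 1 point per line, open for second-class libraries, a bar for the group mean and a dotted line at 0 reads. BCL6, MME and MYBL1 show 3 BL points above every MCL point, while the BCL7A values of GCB DLBCL, ABC DLBCL and MCL overlap.

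MME (chromosome 3, 155024202 to 155183729) encodes CD10. In GCB DLBCL it lay between 6.05 in NU-DHL-1, with 2 reads, and 13.83 in OCI-Ly1, with a median of 12.58. The BL lines had 14 in Daudi, 12.62 in Raji and 14.26 in Ramos. The ABC DLBCL lines had 12.77 in NU-DUL-1, 11.44 in SU-DHL-8, 8.92 in MD903, 5.56 in OCI-Ly10, 5.52 in OCI-Ly3 and 4.82 in HBL-1. MCL lay between 4.81 in Z-138, with 2 reads, and 10.49 in UPN1, with a median of 5.84. Thus 12 of 14 GCB DLBCL lines and all BL lines lay above every MCL line, and ABC DLBCL spread from 2 lines within the range of most GCB DLBCL lines, over MD903 with 910 reads, to 3 lines with 2 to 42 reads. Within MCL 6 lines had 60 reads or fewer and 5 lines, led by UPN1 and Jeko-1 (9.50), had 414 to 3248.

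MME averaged 11.87 ± 2.0 in GCB DLBCL (SD, n = 14) and 6.82 ± 2.09 in MCL (SD, n = 11), a difference of 5.05 ± 0.86 (SE, limma adjusted p = 0.000249) and of 5.58 ± 0.99 within the first class (adjusted p = 0.00402). BL, at 13.63 ± 0.88 (SD, n = 3), exceeded MCL by 6.81 ± 1.40 (limma adjusted p = 0.0102), and the call was lost without Daudi (adjusted p = 0.0962) or Ramos (0.0642). GCB DLBCL exceeded ABC DLBCL, at 8.17 ± 3.39 (SD, n = 6), by 3.70 ± 1.05 without passing (limma adjusted p = 0.0832). This difference passed without NU-DUL-1 (4.62, limma adjusted p = 0.0195) or SU-DHL-8 (4.35, 0.0403), the ABC DLBCL lines with the most MME. BL minus ABC DLBCL was 5.46 ± 1.52 over all lines (limma adjusted p = 0.155) and 6.38 ± 1.42 within the first class (adjusted p = 0.0431), a fit that leaves out NU-DUL-1. The order of mean levels was BL, GCB DLBCL, ABC DLBCL and MCL, and no neighbours in it differed past the threshold.

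ITPKB (chromosome 1, 226631690 to 226739282) encodes a kinase of inositol trisphosphate that restrains signalling through AKT in germinal centre B cells. It lay between 9.20 in Toledo and 13.54 in Karpas422 in GCB DLBCL, with a median of 11.30. In BL, Daudi had 11.13, Raji 10.09 and Ramos 9.41. The ABC DLBCL lines had 9.77 in HBL-1, 9.39 in OCI-Ly3, 9.23 in NU-DUL-1, 8.67 in OCI-Ly10, 7.03 in SU-DHL-8 and 5.26 in MD903. MCL had a narrow range, between 8.27 in JVM2 and 10.69 in HBL-2. Here ABC DLBCL was lowest and MCL second lowest, and 12 of 14 GCB DLBCL lines lay above every ABC DLBCL line.

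ITPKB averaged 11.40 ± 1.29 (SD) over the 14 GCB DLBCL lines and 8.23 ± 1.74 over the 6 ABC DLBCL lines, a difference of 3.17 ± 0.56 (SE, limma adjusted p = 0.00534) and of 3.31 ± 0.71 within the first class (adjusted p = 0.0503). MCL averaged 9.63 ± 0.75 (SD, n = 11), below GCB DLBCL by a difference of 1.78 ± 0.47 (limma adjusted p = 0.00841). That call was lost within the first class (1.71 ± 0.60, adjusted p = 0.127). The mean of the second-class GCB DLBCL lines was 0.12 above that of the first-class ones. BL minus MCL was 0.59 ± 0.75, the smallest difference of the 10 genes in that comparison (limma adjusted p = 0.953). The overlapping gene ITPKB-IT1 had 0 to 483 reads in a line and a difference of 0.775 ± 0.404 between GCB DLBCL and MCL (limma adjusted p = 0.153).

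GCSAM (chromosome 3, 112120839 to 112133248) encodes an adaptor of B-cell receptor signalling and cell motility, known as HGAL. It was present in nearly every GCB DLBCL line, with a median of 12.43, a highest value of 14.29 in DOHH-2 and a lowest value of 6.35 in NU-DHL-1, from 3 reads. The next lowest GCB DLBCL line, HT, had 11.30. Daudi, Raji and Ramos, the BL lines, had 13.27, 14.29 and 12.90. ABC DLBCL ran from 6.12 in HBL-1 to 13.29 in NU-DUL-1, and MCL from 5.37 in REC-1 to 13.53 in GRANTA519. In MCL 4 lines (REC-1, SP-49, Mino and SP-53) lay at 8.31 or lower and 7 at 10.48 or higher, so part of the MCL lines reached the levels of GCB DLBCL. The difference between GCB DLBCL and MCL was 1.89 ± 0.87 (SE, limma adjusted p = 0.106), and 13 of 14 GCB DLBCL lines lay above the MCL median. The overlapping gene C3orf52 had 1 to 2939 reads in a line and a difference of 1.74 ± 0.67 between the same groups (limma adjusted p = 0.0565).

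SERPINA9 (chromosome 14, 94462721 to 94476197) encodes centerin, a serine protease inhibitor of germinal centre B cells. It was either abundant or nearly absent in GCB DLBCL, with 5 lines (OCI-Ly1, OCI-Ly7, NU-DHL-1, Pfeiffer and Toledo) at 15 reads or fewer and 9 lines between 8.80 and 13.12. The BL lines had 9.24 in Daudi, 12.93 in Raji and 5.10 in Ramos. In ABC DLBCL it reached 11.63 in OCI-Ly3 and 9.30 in HBL-1, with 6.69 in OCI-Ly10 and at most 1 read in the other 3 lines. In MCL it reached 11.20 in REC-1 and 8.88 in GRANTA519, while the other 9 lines had 24 reads or fewer. Every pathology thus held lines with at most 15 reads and lines with 429 or more.

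For SERPINA9 the difference between GCB DLBCL (9.38 ± 3.77, SD, n = 14) and MCL (5.74 ± 2.21, SD, n = 11) was 3.64 ± 1.22 (SE, limma adjusted p = 0.0302). It did not pass within the first class, at 4.49 ± 1.5 (adjusted p = 0.106). OCI-Ly1, OCI-Ly7 and NU-DHL-1, with 0 reads at 2.55 to 4.84 M reads in all, allow levels of at most 0.619 to 1.18 RPM. The median of the GCB DLBCL lines other than each of them was 103 RPM, at least 87.8-fold higher than that limit in NU-DHL-1, 113-fold in OCI-Ly7 and 167-fold in OCI-Ly1.

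**Figure D3:**
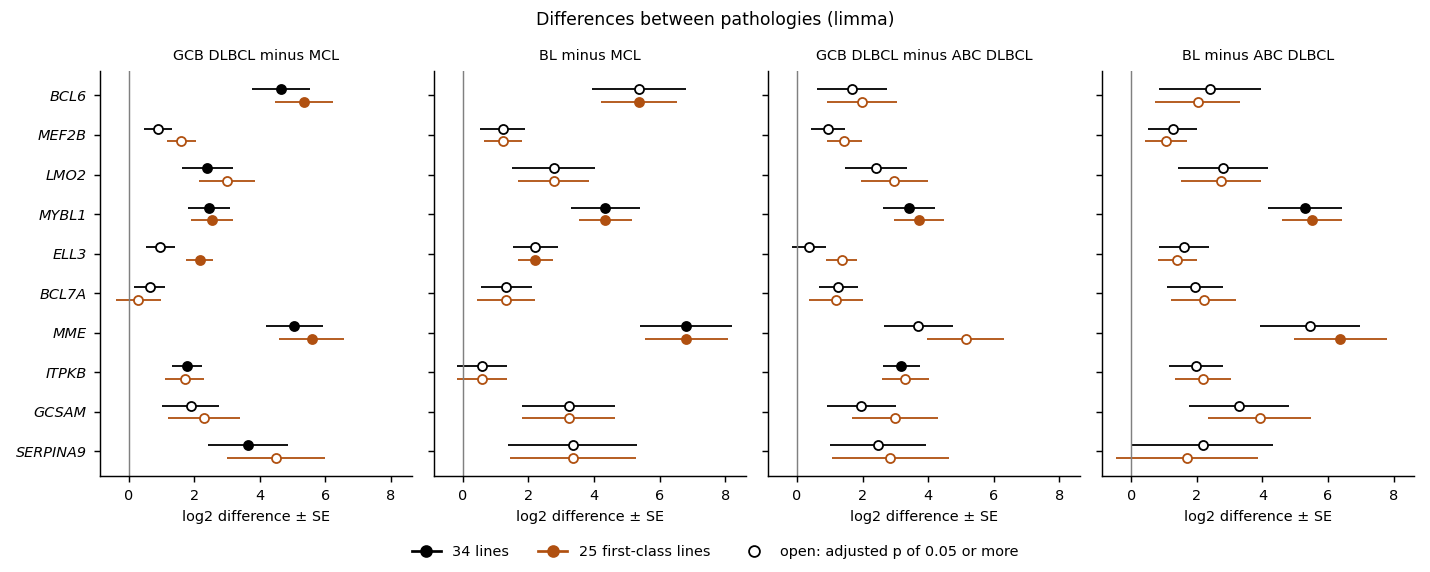
Log2 difference ± SE (horizontal axis) of each of the 10 genes for GCB DLBCL minus MCL, BL minus MCL, GCB DLBCL minus ABC DLBCL and BL minus ABC DLBCL, in black over 34 lines and in orange over the 25 first-class lines, with open points at an adjusted p of 0.05 or more. All differences lie above 0, the filled points over 34 lines number 6, 2, 2 and 1, and ELL3 is filled against MCL in the orange fit only.

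BCL6 and MME were next set against each other, line by line, around their medians over all 34 lines, 12.06 and 10.66. Both were above the median in 10 of 14 GCB DLBCL lines and in all 3 BL lines, in 0 of 6 ABC DLBCL lines and in 0 of 11 MCL lines, and the 11 MCL lines were below both. The ABC DLBCL lines separated into HBL-1, MD903 and OCI-Ly10, with BCL6 alone above its median, NU-DUL-1 and SU-DHL-8, with MME alone, and OCI-Ly3, with neither. Among GCB DLBCL lines Pfeiffer had BCL6 alone, DOHH-2 and Toledo MME alone, and NU-DHL-1 neither. No ABC DLBCL line carried the combination found in most GCB DLBCL lines. No line was regrouped by these values.

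**Figure D4:**
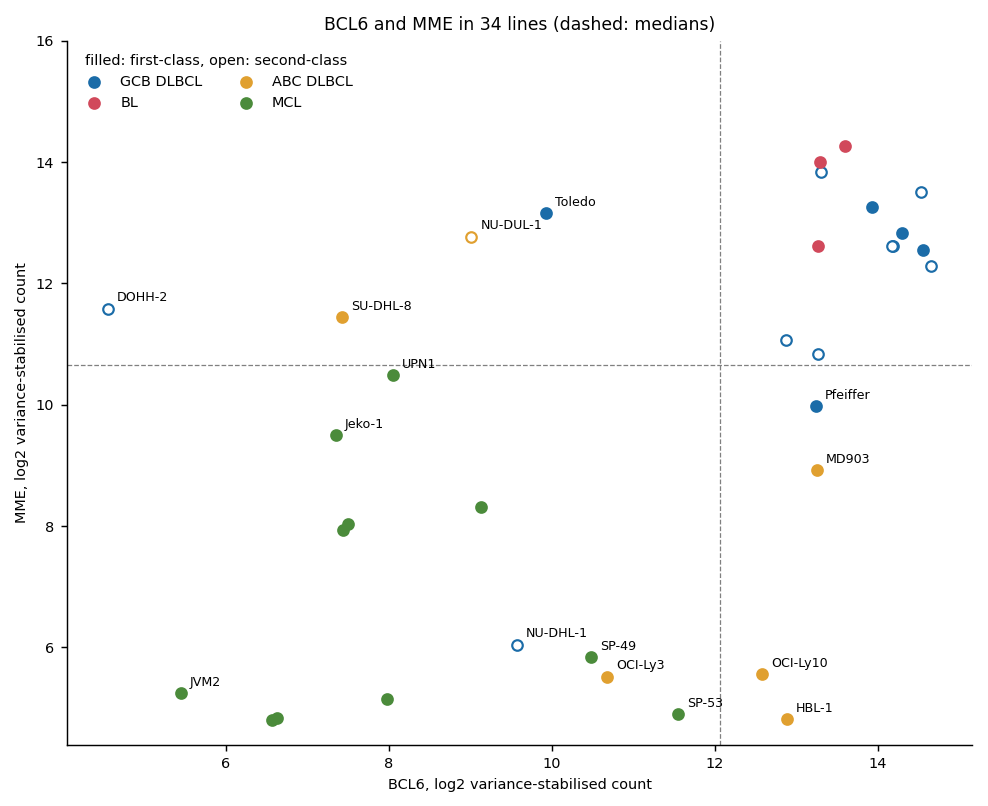
BCL6 (horizontal axis) against MME (vertical axis), both as log2 variance-stabilised counts, with 1 point per line coloured by pathology, open for second-class libraries, and dashed lines at the medians over 34 lines. The upper right holds 10 GCB DLBCL and 3 BL lines, the lower left all 11 MCL lines, and the ABC DLBCL lines lie in the other 3 quadrants.

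Counting the genes above their all-line median in each line gave 1 to 10 of 10 in GCB DLBCL (median 8), 8 to 10 in BL (median 9), 2 to 4 in ABC DLBCL (median 3) and 0 to 6 in MCL (median 2). SU-DHL-6, WSU-DLCL2 and the BL line Daudi had all 10. The lowest GCB DLBCL lines were NU-DHL-1 with 1, Toledo with 4 and DOHH-2 with 5. NU-DHL-1, a second-class line with 2.55 M reads, was above the median in LMO2 alone (8.65). DOHH-2, with 0 reads of BCL6, had a GCSAM of 14.29. Toledo, a first-class line, combined a MEF2B of 4.94 and the BCL6 of 9.93 with an MME of 13.16 and a GCSAM of 13.44. Among MCL lines GRANTA519 had 6 genes above the median, with the highest MCL values of MYBL1, LMO2 and GCSAM, and JVM2 had 0.

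An exception was counted where a GCB DLBCL or BL line lay below the median of the ABC DLBCL and MCL lines, or an ABC DLBCL or MCL line above the median of the GCB DLBCL and BL lines. MEF2B had the most low exceptions, in 5 GCB DLBCL lines, while MME had none by this rule. In a shallow library 1 or 2 reads could exceed the median used, and such a line was not counted. This held for MME in NU-DHL-1 (2 reads, 6.05 against 5.84) and for LMO2 in Karpas422 (1 read, 5.34 against 5.19). Deep libraries with few reads could also escape the rule where the median lay near the lowest value of the scale. For SERPINA9, with a median of 4.78, Pfeiffer (3 reads, 4.90), Ramos (5 reads, 5.10) and Toledo (15 reads, 5.29) were not counted. NU-DHL-1 was a low exception in 6 genes, DOHH-2 in 4 and OCI-Ly1 and OCI-Ly7 in 3 each, all of them second-class lines. Ramos was the single BL exception by this rule, in ITPKB. High exceptions were 3 lines each for GCSAM (NU-DUL-1, GRANTA519 and UPN1) and BCL7A (MAVER-1, UPN1 and Z-138), 2 each for SERPINA9 and ELL3, and 1 each for MME (NU-DUL-1) and LMO2 (GRANTA519). BCL6, MYBL1, ITPKB and MEF2B had no high exception. The shallow libraries had few reads of the weaker genes, and the part of depth and library class in their low exceptions was not tested.

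Across the 25 first-class lines the 45 pairs of the 10 genes had Spearman correlations with a median of 0.47, of which 44 were positive. The highest was 0.81 for BCL6 with ELL3 and the only negative one -0.12 for SERPINA9 with BCL7A. Within the 11 MCL lines 26 of the 45 were positive with a median of 0.04, and within the 14 GCB DLBCL lines 34 were positive with a median of 0.31.  Lines share pathology, library class and depth, so these are descriptions without a test.

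Of all other genes kept, those most like BCL6 over the 25 first-class lines were RP11-211G3.2, with a Spearman correlation of 0.90 but at most 30 reads in a line, LOXL2, a lysyl oxidase (0.85), and MED26, a Mediator subunit (0.85). BCL6 overlaps the gene BCL6-AS1, which was not found under that symbol. Whether RP11-211G3.2 shares reads with BCL6 was not tested. Most like MME were the bicarbonate transporter SLC4A10 (0.83), the regulator of G protein signalling RGS8 (0.83) and KIAA1161 (0.80). Within the 11 MCL lines the same correlations were 0.66, 0.35 and 0.14 for BCL6 and 0.68, 0.22 and 0.48 for MME. They were chosen as the highest of 22167 genes and carry no test.

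Of 16 family relatives of the 10 genes kept by the filter, 3 were lower in GCB DLBCL than in MCL (limma), while 2436 of the 22167 genes tested were lower. They were BCL6B (-0.55 ± 0.20, adjusted p = 0.0463), the MME relative MMEL1 (-0.67 ± 0.22, adjusted p = 0.0265) and the ITPKB relative ITPKA (-1.07 ± 0.32, adjusted p = 0.0171). None of the 3 passed within the first class, with adjusted p-values of 0.403, 0.417 and 0.644, and their highest read counts in a line were 115, 240 and 326. MYB, the haematopoietic relative of MYBL1, averaged 9.63 ± 2.02 in GCB DLBCL (SD, n = 14) and 11.27 ± 1.22 in MCL (SD, n = 11), a difference of -1.64 ± 0.70 opposite in sign to that of MYBL1 (limma adjusted p = 0.0815). MEF2C, a relative of MEF2B with a role in B-cell development, differed by 1.22 ± 0.78 (limma adjusted p = 0.248). LMO1, with at most 39 reads in a line, was not kept, and GCSAML was not found by that symbol among the 31975 genes.

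Part of the genes that BCL6 is known to repress were lower in GCB DLBCL than in MCL. Of 18 such genes 8 were lower (limma), while 2436 of the 22167 genes tested were lower. Their median difference was -1.61 against 0.02 over all genes. Within the first class 4 were lower, beside 1.56% of all genes. For GCB DLBCL minus ABC DLBCL limma called 0 of the 18, while 87 of all genes were lower, with a median difference of -1.48 against 0.04. For GCB DLBCL minus BL 0 of the 18 were called, while 0.153% of all genes were called in either direction, with a median difference of 0.01 against 0.15. In the comparison with MCL the 4 genes with the smallest adjusted p were as follows, and these are not the 4 largest differences. S1PR1, the receptor that draws lymphocytes out of lymphoid tissue, averaged 6.31 ± 2.09 in GCB DLBCL (SD, n = 14) and 10.20 ± 1.62 in MCL (SD, n = 11), a difference of -3.90 ± 0.69 (limma adjusted p = 0.000342, first class 0.00583). The chemokine CCL3 differed by -4.81 ± 0.99 (limma adjusted p = 0.0015, first class 0.132), the cell cycle inhibitor CDKN1A by -3.42 ± 0.81 (0.00481, first class 0.055) and the activation marker CD69 by -3.26 ± 0.79 (0.00511, first class 0.0428). In BL, S1PR1 averaged 4.99 ± 0.11 (SD, n = 3) and was also lower than in MCL, by a difference of -5.22 ± 1.11 (limma adjusted p = 0.0131).

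Of 16 other germinal centre genes, 7 were higher in GCB DLBCL than in MCL (limma), beside 12.7% of all genes, with a median difference of 1.22 against 0.02 over all genes. Within the first class 3 were higher, beside 1.27% of all genes. S1PR2, which confines B cells to the germinal centre, averaged 11.17 ± 1.96 in GCB DLBCL (SD, n = 14) and 7.74 ± 1.23 in MCL (SD, n = 11), a difference of 3.44 ± 0.61 (limma adjusted p = 0.000361, first class 0.00901). GNA13, the G protein subunit downstream of S1PR2, differed by 1.59 ± 0.28 (limma adjusted p = 0.000389, first class 0.000499), RGS13 by 4.97 ± 1.01 (0.00134, first class 0.0483) and the ubiquitin ligase subunit ASB2 by 4.05 ± 0.82 (0.0014, first class 0.0517). S1PR2 was also higher in GCB DLBCL than in ABC DLBCL (4.21 ± 0.74, limma adjusted p = 0.00496), and S1PR2 (4.05 ± 0.98, adjusted p = 0.0323) and RGS13 (6.35 ± 1.63, adjusted p = 0.0438) were higher in BL than in MCL.

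**Figure D5:**
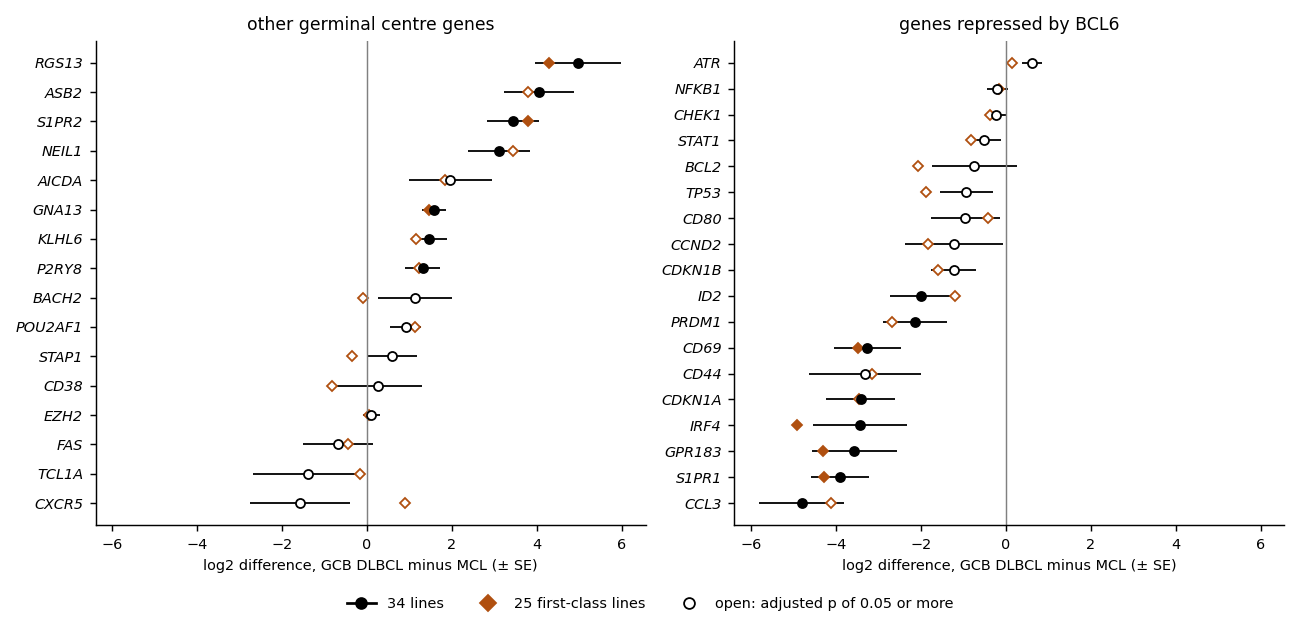
Log2 difference ± SE (horizontal axis) for GCB DLBCL minus MCL of 16 other germinal centre genes (left) and 18 genes repressed by BCL6 (right), as black circles over 34 lines and orange diamonds without error bars over the 25 first-class lines, open at an adjusted p of 0.05 or more. Filled black circles are 7 on the right side of 0 in the left panel and 8 on the left side of 0 in the right panel.

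Of 11 BCL6 corepressors 3 were higher and 2 lower in GCB DLBCL than in MCL (limma), while 23.7% of all genes were called in either direction, with a median difference of -0.12 against 0.02 over all genes. TBL1XR1 (0.93 ± 0.24, adjusted p = 0.00694), MTA3 (0.97 ± 0.31, adjusted p = 0.0255) and NCOR1 (0.88 ± 0.31, adjusted p = 0.0366) were higher and CTBP1 lower (-0.92 ± 0.25, adjusted p = 0.0102). None of the 5 passed within the first class, where NCOR1 differed by 0.05. TBL1XR1 was also higher in ABC DLBCL than in MCL (1.43 ± 0.30, limma adjusted p = 0.012, first class 0.0177). Of 11 SWI/SNF subunits beside BCL7A, SS18 (0.97 ± 0.22, limma adjusted p = 0.00334) and ARID1A (0.94 ± 0.24, adjusted p = 0.00816) were higher in GCB DLBCL than in MCL over all lines, 2 of 11 beside 12.7% of all genes, and did not pass within the first class (adjusted p = 0.075 and 0.431). Of 7 partners of LMO2, 5 were kept, with differences between -0.62 for LYL1 (limma adjusted p = 0.306) and -0.08 for TCF3 (adjusted p = 0.903).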

How the data were processed

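RNA sequencing of 34 lymphoma cell lines, 1 library per line, was read from a table deposited by the authors that held variance-stabilised counts per gene in log2 units. Tools in the submitters' processing notes were DESeq2 1.26.0, R 3.6.1 and STAR 2.5.3a, beside the build GRCh38, without stated roles. The read counter, annotation release and strand of counting are not given in the sources used here. Inverting the transform gave whole reads within 0.05 for 100% of values, from which depths and RPM were computed. The recovered depth sets the precision, and limits from counts of 0 cover counting error only.

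The filter required a value more than 1 log2 unit above the lowest in at least 3 lines (22167 of 31975 genes passed, with all 10 described among them). In R 4.3.3, limma 3.58.1 fitted a mean per pathology, a shared spread and an intensity trend. Adjusted p-values are Benjamini-Hochberg over all genes kept, with a threshold of 0.05. Whole lists are given by counts and medians. Named genes were the 10 genes, their relatives, up to 4 genes with the smallest adjusted p of each list and the 3 genes most like BCL6 and MME. The genes, lists and library classes were chosen with earlier results of these data known. Alternatives changed the lines, the covariates, the scaling, the filter, the prior, the weights or the model (limma-voom on recovered reads). A B-cell marker of the fixed list is not reported here.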

Additional observations from a re-analysis of the deposited data

How the results depend on the processing

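Under 20 alternatives the 11 called differences kept their direction in all 220 values and fell short of the threshold in 34. Changes of the filter or of the intensity trend leave a difference as it was, so part of the 220 values could not change direction. BCL6 and MME in GCB DLBCL minus MCL passed in all 20, with limma adjusted p-values of 4.56e-05 to 0.00416 and 1.45e-05 to 0.0102, but 9 of the 20 leave out a BL or ABC DLBCL line and cannot move this difference, and no GCB DLBCL or MCL line was left out singly. MYBL1 in GCB DLBCL minus MCL was lost in 1 of the 20, with library class as a covariate (limma adjusted p = 0.114). In the same comparison LMO2 and ITPKB were each lost in 3 and SERPINA9 in 4, with limma adjusted p-values of up to 0.1, 0.144 and 0.106. For these genes and MYBL1 too, the same 9 fits cannot move the difference. Of 1200 values of all 60 differences, 32 changed sign, each for a difference that had not passed. The cause was not tested.

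For GCB DLBCL minus ABC DLBCL MYBL1 alone was called within the first library class and ITPKB alone with class as a covariate and among the 30 re-analysed lines (1 gene each), and 1 to 3 when single BL or ABC DLBCL lines were left out, against 2. Over all genes 27, 16 and 46 were higher in these 3 settings and 18 to 187 without single lines, against 74. For GCB DLBCL minus MCL 3 were called with class as a covariate, against 6, while 135 of all genes were higher, against 2809. For BL minus ABC DLBCL 2 were called within the first class, with array weights and by limma-voom, 0 with class as a covariate, among re-analysed lines and after quantile normalization, and 0 to 2 without single lines, against 1. Over all genes 61 were higher within the first class, 309 with array weights and 67 by limma-voom, against 15. With class as a covariate 14 were, among re-analysed lines 8, after quantile normalization 32 and without single lines 7 to 32. For BL minus MCL 4 were called within the first class, with class as a covariate, with array weights, by limma-voom and without the 8 shallow libraries (chosen after seeing the data), 0 among re-analysed lines, which leave out Daudi, and 0 to 3 without single lines, against 2. For ABC DLBCL minus MCL 1 was called with array weights, against 0, while 303 of all genes were higher, against 37.

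In GCB DLBCL minus BL, BCL6 turned to 0.093 with class as a covariate, LMO2 to 0.23 in the first class, 0.14 with the covariate and 0.23 without the shallow libraries, and MEF2B to 0.38 under these and with array weights. In ABC DLBCL minus MCL, LMO2 turned to 0.024 in the first class, 0.13 with the covariate, 0.20 median-centred, 0.051 after quantile normalization, 0.094 with array weights and 0.88 by limma-voom, MEF2B under the same to 0.16, 0.17, 0.17, 0.0047, 0.024 and 0.047, and GCSAM to 0.44 among re-analysed lines and 0.15 median-centred. Without single lines, GCB DLBCL minus BL ranged from -1.41 to 0.31 for LMO2 and -1.70 to 2.21 for SERPINA9, and ABC DLBCL minus MCL from -0.12 to 0.11 for LMO2, -0.15 to 0.16 for MEF2B and -0.69 to 0.74 for GCSAM.

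Over all genes, GCB DLBCL minus MCL gave 2809 higher and 2436 lower (53.6% higher), 4429 and 1473 median-centred (75.0% higher, with the median difference of all genes at 0.17 against 0.02), 1772 and 1153 by limma-voom, and 282 and 346 in the first class. Median-centring moved the median of all genes to 0.38 from -0.05 in BL minus MCL, where 63.4% of calls were higher against 32.0%, and to 0.23 from 0.02 in ABC DLBCL minus MCL (55.4% against 24.2%), and lowered that share to 14.6% from 41.2% in GCB DLBCL minus BL and to 32.3% from 46.0% in GCB DLBCL minus ABC DLBCL. Quantile normalization gave 21.3% in GCB DLBCL minus BL and 47.6% in BL minus MCL. Few reads limit ELL3 and MEF2B in the 8 shallow libraries. No paired analysis was possible because replicate numbers follow accession order and pair no lines.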

Other observations

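High levels of some transcripts of other tissues were seen in single lines, while reads of such markers were more widespread, with TRAC reads in every line. Of 6 T-cell markers the summed level reached 705 reads per M library reads (RPM, with M for 1e6) in the GCB DLBCL line Pfeiffer, of which CD8A made up 699. The median of that sum was 32.7 RPM in GCB DLBCL, 19.0 in BL, 9.33 in ABC DLBCL and 26.3 in MCL. CD3G reached 163 RPM in Karpas422 and TRAC 155 RPM in SU-DHL-5. Of 5 stromal markers the sum reached 467 RPM in the GCB DLBCL line Karpas422, of which DCN alone made up 467. Of 6 myeloid markers the sum was at most 12.1 RPM in any line. By the rule used above Pfeiffer and Karpas422 were not exceptions in any of the 10 germinal centre genes. That rule missed SERPINA9 in Pfeiffer (3 reads) and LMO2 in Karpas422 (1 read). No line was left out for the marker values.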
